A study of Mus musculus with 7 samples.

Results

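The Wnt ligands are a family of secreted, lipid-modified proteins, and 10 of them were followed across skin layers and body regions: Wnt2, Wnt3, Wnt4, Wnt5a, Wnt6, Wnt7b, Wnt10a, Wnt10b, Wnt11 and Wnt16. They were chosen by gene symbol, and all 10 were found among the 22552 gene symbols of a table of RNA levels, which also holds 9 other Wnt ligands. Cells had been sorted by flow cytometry from the skin of mice at postnatal day 50, and total RNA was sequenced in 7 libraries, 1 per group. The groups were ear dermis and ear epidermis of heterozygous Koa mice (Wt/Koa), tail dermis, dorsal dermis and dorsal epidermis of wild-type (WT) mice, and ear dermis and ear epidermis of WT mice, all of strain CD1/C3H. The Koa allele is dominant, makes the ears hairy and carries an inverted stretch of chromosome 15. The number of animals behind a library is not given in the labels.

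As each group is 1 library, differences are unreplicated and groups were compared by size alone, without p-values. Levels are FPKM, fragments scaled by transcript length and by mapped fragments, as computed by the authors. A gene was said to be higher or lower where it stood at 1 FPKM or more in at least 1 of the compared libraries and differed by at least 1 on the log2(FPKM + 1) scale, here called the size rule. This scale understates the change of low genes. Ratios of FPKM carry exact 95% intervals of counting error, from depths of 31.6 to 40.3 M fragments recovered for 6 libraries. These intervals do not cover variation between animals. The depth of the tail library is unknown.

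Wnt ligands bind Frizzled receptors at the surface of a receiving cell. With the co-receptors Lrp5 and Lrp6 they stabilise beta-catenin, which then acts with TCF/LEF factors on target genes. Some ligands, Wnt5a and Wnt11 among them, act largely without beta-catenin. In skin, Wnt signals from epidermis and dermis start hair follicle formation in the embryo, drive the growth phase of the hair cycle and maintain basal keratinocytes.

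The layers could be told apart by their markers, and each library also held markers of the other layer. Summed basal keratinocyte markers (8 genes, led by Krt5, Krt14 and Krt15) stood between 15148 and 19977 FPKM in the epidermal libraries, at 1937 FPKM in Koa ear, 143 FPKM in WT tail, 6364 FPKM in WT dorsal and 780 FPKM in WT ear dermis, and none was at 0 in any library. Summed fibroblast markers (7 genes) stood between 6177 and 11028 FPKM in the dermal libraries and between 56.7 and 102 FPKM in the epidermal ones, of which Thy1 gave 37.5 to 69.2 FPKM. In these bulk libraries fewer cells of a type and less RNA per cell cannot be told apart. The tail library stood apart: its values carry 2 decimals, 222 genes at 10 FPKM or more in every other library are listed at 0 in it, and its median difference from WT ear dermis over all genes was -0.49 on the log2(FPKM + 1) scale.

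All 10 genes are protein coding, and their positions come from the GENCODE annotation of GRCm38. Wnt6 (74771892 to 74785322) and Wnt10a (74791516 to 74804179) are neighbours on the plus strand of chromosome 1, 6.193 kb apart. Wnt2 (17988940 to 18030585, minus strand) and Wnt16 (22288227 to 22298522, plus strand) lie on chromosome 6. Wnt7b (85535437 to 85582473) and Wnt10b (98770712 to 98778150) lie on the minus strand of chromosome 15, between Trps1 (50654752 to 50890463) and the Hoxc cluster (102921103 to 103036852). The remaining genes are Wnt4 on chromosome 4 (137277489 to 137299726), Wnt11 on chromosome 7 (98835112 to 98855195), Wnt3 on chromosome 11 (103774150 to 103817957) and Wnt5a on chromosome 14 (28504750 to 28527448), all on the plus strand. Annotated genes on the other strand overlap Wnt5a, Wnt6, Wnt7b and Wnt11, and it is not known whether strand was used in counting. The partner of Wnt7b, AU022754, stood at 0 to 0.553 FPKM.

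Epidermal libraries were led by Wnt4, whereas the dermal libraries of the ear and the tail were led by Wnt5a. Summed over 19 Wnt ligands, the level was 68.1 FPKM in Koa ear dermis, 77.0 FPKM in WT tail dermis, 88.8 FPKM in WT dorsal dermis and 57.5 FPKM in WT ear dermis. In the epidermis it was 138 FPKM in Koa ear, 187 FPKM in WT dorsal and 119 FPKM in WT ear. The 10 members made up 82.5% of that sum in Koa ear dermis, 67.0% in WT tail dermis, 92.6% in WT dorsal dermis and 77.6% in WT ear dermis, against 94.2% to 96.8% in the epidermal libraries. In epidermis, Wnt4 alone gave 44.6% of the Wnt sum for Koa ear, 26.2% for WT dorsal and 44.7% for WT ear. Wnt5a gave 26.3% in Koa ear dermis, 45.9% in WT tail dermis, 10.2% in WT dorsal dermis and 26.5% in WT ear dermis. In WT dorsal dermis, Wnt4 led with 22.3%, and Wnt3 came next with 17.3%. All 10 members reached 1 FPKM in Koa ear and WT dorsal dermis, 8 in WT ear dermis and 5 in WT tail dermis.

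**Figure D1:**
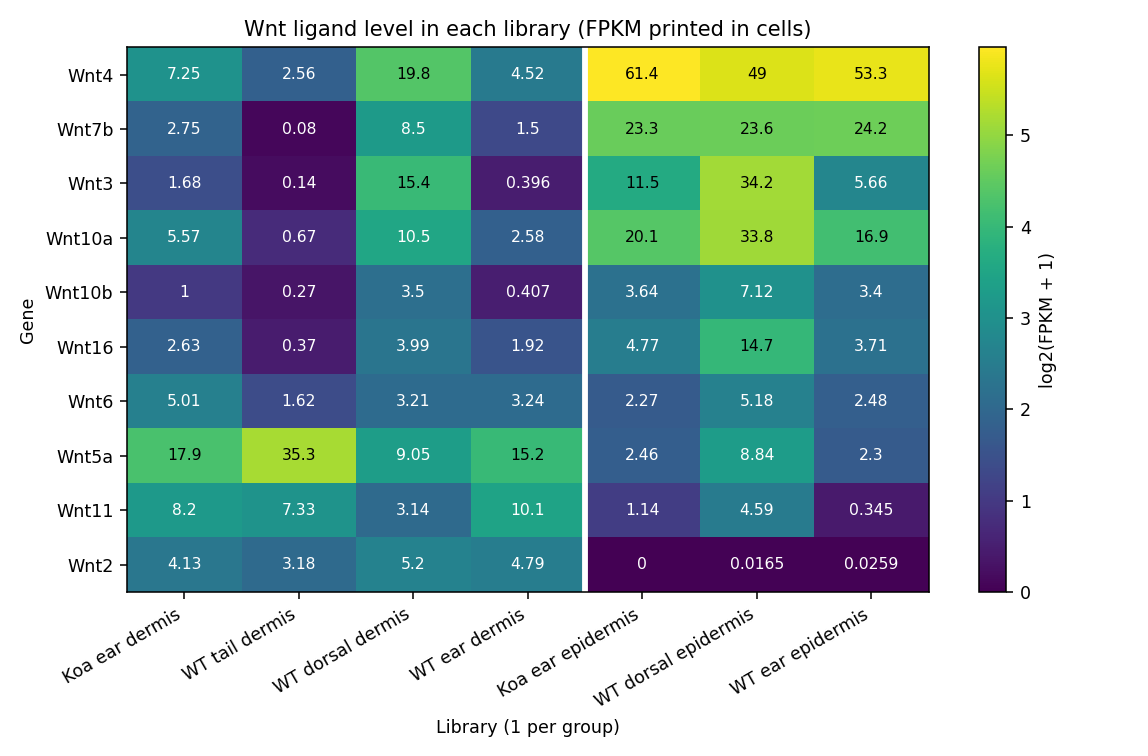
Level of each Wnt ligand (rows) in each of the 7 libraries (columns, 1 per group), with colour on the log2(FPKM + 1) scale and FPKM printed in the cells; the white line parts dermis from epidermis. Wnt4 reached 49.0 to 61.4 FPKM in the 3 epidermal libraries, and Wnt2 was at 3.18 FPKM or more in the 4 dermal libraries and under 0.03 FPKM in the epidermal ones.

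**Figure D2:**
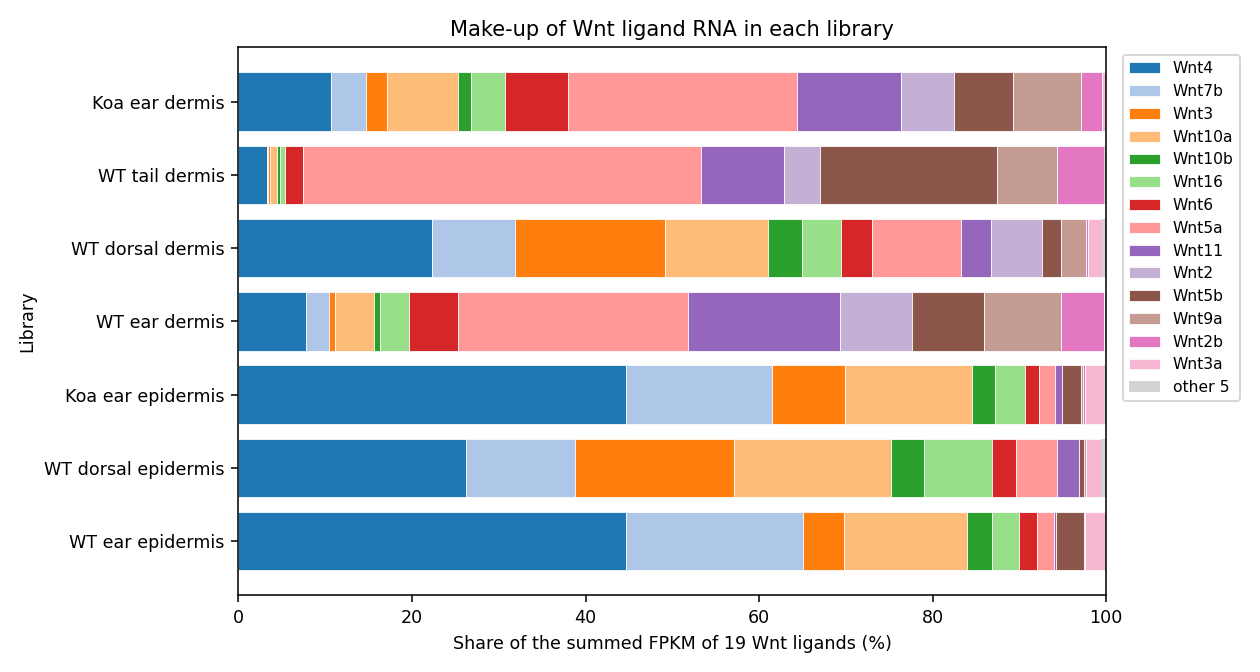
Share of each Wnt ligand in the summed FPKM of 19 Wnt ligands (horizontal axis, percent) for each library (vertical axis, 1 library per group). Wnt4 made up 44.6% of the Koa and 44.7% of the WT ear epidermis sum, and Wnt5a 26.3% in Koa ear dermis and 26.5% in WT ear dermis.

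Of the other Wnt ligands, 4 reached 1 FPKM in a library. Wnt9a stood at 5.35 FPKM in Koa ear, 5.39 in WT tail, 2.64 in WT dorsal and 5.12 FPKM in WT ear dermis, and at most at 0.335 FPKM in epidermis. Wnt5b, the closest relative of Wnt5a, reached 15.7 FPKM in WT tail dermis, and lay between 1.24 and 4.77 FPKM in the other libraries. Wnt3a, the closest relative of Wnt3, stood between 2.75 and 3.21 FPKM in the epidermal libraries and at 1.35 FPKM or less in the dermal ones. Wnt2b was highest in WT tail dermis (4.16 FPKM) and reached 2.84 FPKM in WT ear dermis. Wnt1, Wnt7a, Wnt8a, Wnt8b and Wnt9b did not exceed 0.659 FPKM in any library.

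The sequences at the gene starts are shown for 2 members that were higher in dorsal than in ear epidermis, Wnt3 and Wnt16, and for 2 that were higher in ear dermis than in ear epidermis, Wnt11 and Wnt2. Wnt11 was also higher in dorsal than in ear epidermis, so these groups are not distinct. RefSeq promoter windows (GRCm38.p6, 250 bases before to 50 bases after the annotated start) were matched for 7 of the 10 members, and those of Wnt5a, Wnt7b and Wnt10a are not shown. The letters of 3 motifs were searched on both strands: the CCAAT box (CCAAT), the TATA box (TATAAA) and the TCF/LEF core (CTTTG followed by AA, AT, TA or TT). Capitals mark every match, which on the opposite strand reads as the reverse complement. Over all 32851 windows of this length, 37.4% held the CCAAT box, 13.6% the TATA box and 16.9% the TCF/LEF core. The windows run 5′ to 3′ along the strand of the gene, at chr11:103773925-103774224 (plus strand) for Wnt3, chr6:22287977-22288276 (plus strand) for Wnt16, chr7:98834862-98835161 (plus strand) for Wnt11 and chr6:18030396-18030695 (minus strand) for Wnt2.
Wnt3: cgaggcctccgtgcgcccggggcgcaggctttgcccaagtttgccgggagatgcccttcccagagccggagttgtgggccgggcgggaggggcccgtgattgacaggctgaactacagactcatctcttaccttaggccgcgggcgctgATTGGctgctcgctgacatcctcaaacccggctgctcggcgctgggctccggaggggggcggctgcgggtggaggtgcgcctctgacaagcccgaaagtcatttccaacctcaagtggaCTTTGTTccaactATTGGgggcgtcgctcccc
Wnt16: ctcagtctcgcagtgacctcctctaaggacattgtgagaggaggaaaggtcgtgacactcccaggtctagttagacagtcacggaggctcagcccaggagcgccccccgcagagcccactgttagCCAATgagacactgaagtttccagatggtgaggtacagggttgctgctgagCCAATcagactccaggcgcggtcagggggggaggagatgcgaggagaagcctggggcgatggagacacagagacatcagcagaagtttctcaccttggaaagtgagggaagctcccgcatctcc
Wnt11: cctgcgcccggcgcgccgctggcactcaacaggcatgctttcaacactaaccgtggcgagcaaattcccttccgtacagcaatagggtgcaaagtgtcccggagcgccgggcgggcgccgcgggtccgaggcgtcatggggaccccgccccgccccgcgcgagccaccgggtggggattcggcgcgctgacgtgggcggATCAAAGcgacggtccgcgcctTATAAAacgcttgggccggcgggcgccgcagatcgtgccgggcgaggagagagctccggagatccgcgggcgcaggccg
Wnt2: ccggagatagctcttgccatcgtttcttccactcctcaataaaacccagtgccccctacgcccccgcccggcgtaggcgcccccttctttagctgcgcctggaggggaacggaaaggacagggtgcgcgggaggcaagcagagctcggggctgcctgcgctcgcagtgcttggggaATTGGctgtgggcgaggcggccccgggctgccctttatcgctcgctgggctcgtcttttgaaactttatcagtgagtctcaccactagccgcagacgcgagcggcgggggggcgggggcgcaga

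The windows of Wnt3 and Wnt16 each held 2 CCAAT boxes, and that of Wnt2 held 1. The Wnt11 window, the first of the 2 that RefSeq gives, held a TATA box that begins at position -29 from the annotated start and a TCF/LEF core at position -51. Wnt3 also held a TCF/LEF core, just after the start. None of these motifs was found in the second Wnt11 window or in those of Wnt4, Wnt6 and Wnt10b, so the windows shown are those that held a match. A match is a description of the letters, not of a bound site. The windows of the members are rich in G and C, from 58.0% in Wnt16 to 84.3% in Wnt4, against a median of 52.7% over all windows.

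The first comparison set dermis against epidermis in each region. By the size rule 3 members were higher in Koa ear dermis than in Koa ear epidermis (Wnt2, Wnt5a, Wnt11) and 5 were lower (Wnt3, Wnt4, Wnt7b, Wnt10a, Wnt10b), where 20.4% of 13954 genes were higher and 12.7% lower (33.1% in all). The same members were higher and lower in WT ear dermis against WT ear epidermis, where 21.3% of 13840 genes were higher and 14.4% lower (35.6% in all). In WT dorsal skin Wnt2 was higher in dermis than in epidermis, and Wnt3, Wnt4, Wnt7b, Wnt10a and Wnt16 were lower, where 16.1% of 13896 genes were higher and 8.27% lower (24.4% in all). Scaled to equal FPKM totals, which moved the median of all genes to 0.34, Wnt3 (-0.57), Wnt4 (-0.73) and Wnt7b (-0.84) no longer passed it there. The median difference over the members was -0.94, -1.17 and -0.98 in Koa ear, WT ear and WT dorsal skin, beside -0.11, -0.09 and -0.14 over all genes tested.

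Wnt2, a ligand known from lung development, had by ratio the sharpest layer difference of the 10, resting on 0 to 2 fragments in epidermis. It stood at 4.13 FPKM in Koa ear, 3.18 FPKM in WT tail, 5.20 FPKM in WT dorsal and 4.79 FPKM in WT ear dermis. It was listed at 0 in Koa ear epidermis and stood at 0.0165 FPKM in WT dorsal and 0.0259 FPKM in WT ear epidermis, which is about 1 and 2 fragments. The dermal and epidermal libraries did not overlap, and the share of all genes without such overlap is not given here. As a share of the dermal level, the epidermal level of Wnt2 was 0.317% (0.00748 to 1.66) in WT dorsal and 0.541% (0.0609 to 1.84) in WT ear skin. The 7 fibroblast markers stood in those epidermal libraries at a median of 0.485% and 0.158% of their dermal level.

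Wnt5a and Wnt11, ligands of cell polarity and movement, went with the dermis in the ear but not on the back. Wnt5a stood at 17.9 FPKM in Koa ear dermis and 2.46 FPKM in Koa ear epidermis, and at 15.2 FPKM in WT ear dermis and 2.30 FPKM in WT ear epidermis. In WT dorsal skin it stood at 9.05 FPKM in dermis and 8.84 FPKM in epidermis, a ratio of 1.02 (0.961 to 1.09). Wnt11 stood at 8.2 and 1.14 FPKM in Koa ear dermis and epidermis, 3.14 and 4.59 FPKM in WT dorsal dermis and epidermis, and 10.1 and 0.345 FPKM in WT ear dermis and epidermis. WT dorsal epidermis was thus the epidermal library with the highest level of both. There the level of Wnt5a was 97.7% of that in WT dorsal dermis (91.7 to 104) and that of Wnt11 was 146% (127 to 169). Fibroblast markers in that library stood at a median of 0.485% of their dermal level (0.309% to 58.9%, the last for Thy1), endothelial markers at 11.04% and dermal papilla markers at 19.3%, with Wif1 highest at 51.8%.

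Wnt4, Wnt7b and Wnt3, ligands of the basal epidermis, stood in the dermal libraries at about the share of the keratinocyte markers. Wnt4 stood at 7.25 FPKM in Koa ear dermis and 61.4 FPKM in Koa ear epidermis, at 19.8 and 49.0 FPKM in WT dorsal dermis and epidermis, and at 4.52 and 53.3 FPKM in WT ear dermis and epidermis. Its dermal level was thus 11.8% (11.1 to 12.6), 40.3% (38.5 to 42.2) and 8.47% (7.82 to 9.18) of the epidermal one in Koa ear, WT dorsal and WT ear skin. For Wnt7b these shares were 11.8%, 36.0% and 6.19%, and for Wnt3 14.6%, 44.9% and 7.0%. The 8 basal keratinocyte markers had medians of 11.6%, 40.7% and 7.995%, with ranges of 9.81% to 43.9%, 26.5% to 75.8% and 4.12% to 31.4%, the top of each being Dst, which fibroblasts also make. Beyond counting error, Wnt3 lay above the basal median in Koa ear and WT dorsal skin, and Wnt7b below it in WT dorsal and WT ear skin. The 7 suprabasal markers had medians of 11.9%, 35.9% and 4.14%. Once the median basal share of the epidermal profile was subtracted from each dermal library, Wnt4 stood at 0.136, 0 and 0.255 FPKM, Wnt7b at 0.0545, 0 and 0 FPKM, and Wnt3 at 0.349, 1.45 and 0 FPKM in Koa ear, WT dorsal and WT ear dermis. Levels with a share near that median fall to about 0 by construction, so these values restate the shares. The part of keratinocytes in these dermal levels was not tested.

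Wnt10a and Wnt10b, paralogous ligands of the epidermis and its placodes, held a higher dermal share than Wnt3, Wnt4 and Wnt7b in both ears. In the WT ear the counting interval of Wnt10b overlapped those of Wnt3 (4.93 to 9.51) and Wnt4 (7.82 to 9.18). Wnt10a stood at 5.57 FPKM in Koa ear dermis and 20.1 FPKM in Koa ear epidermis, a share of 27.7% (24.9 to 30.8), and at 2.58 and 16.9 FPKM in WT ear dermis and epidermis, a share of 15.3% (13.1 to 17.6). On the back it stood at 10.48 FPKM in dermis and 33.8 FPKM in epidermis, or 31.0% (28.6 to 33.7), below the marker median there. Wnt10b stood at 1.00 and 3.64 FPKM in Koa ear dermis and epidermis (27.5%, 21.5 to 34.8), at 3.496 and 7.12 FPKM in WT dorsal dermis and epidermis (49.1%, 42.4 to 56.7), and at 0.407 and 3.40 FPKM in WT ear dermis and epidermis (11.98%, 8.26 to 16.8). Markers of the growing hair follicle had medians of 28.7% in Koa ear, 58.0% in WT dorsal and 13.1% in WT ear dermis, over 8, 8 and 5 genes at 1 FPKM or more in the epidermis. The part of follicle cells in the dermal levels of Wnt10a and Wnt10b was not tested.

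Wnt16 and Wnt6 were the members whose ear levels were closest between the layers. Wnt16, a ligand known from bone and skin, stood at 2.63 FPKM in Koa ear dermis and 4.77 FPKM in Koa ear epidermis, a share of 55.2% (47.6 to 63.8). It stood at 1.92 and 3.71 FPKM in WT ear dermis and epidermis, a share of 51.7% (43.8 to 61.0), above every keratinocyte marker of that library. In WT dorsal skin it stood at 3.99 FPKM in dermis and 14.7 FPKM in epidermis, a share of 27.1% (24.2 to 30.3), near the lowest marker. After the subtraction 2.08 FPKM of Wnt16 was left in Koa ear, none in WT dorsal and 1.62 FPKM in WT ear dermis. Wnt6 stood at 5.01 and 2.27 FPKM in Koa ear dermis and epidermis, 3.21 and 5.18 FPKM in WT dorsal dermis and epidermis, and 3.24 and 2.48 FPKM in WT ear dermis and epidermis. Dermis was thus above epidermis in both ears and below it on the back, by less than the size rule in each case. Its neighbour Wnt10a was lower in dermis in all 3 regions.

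**Figure D3:**
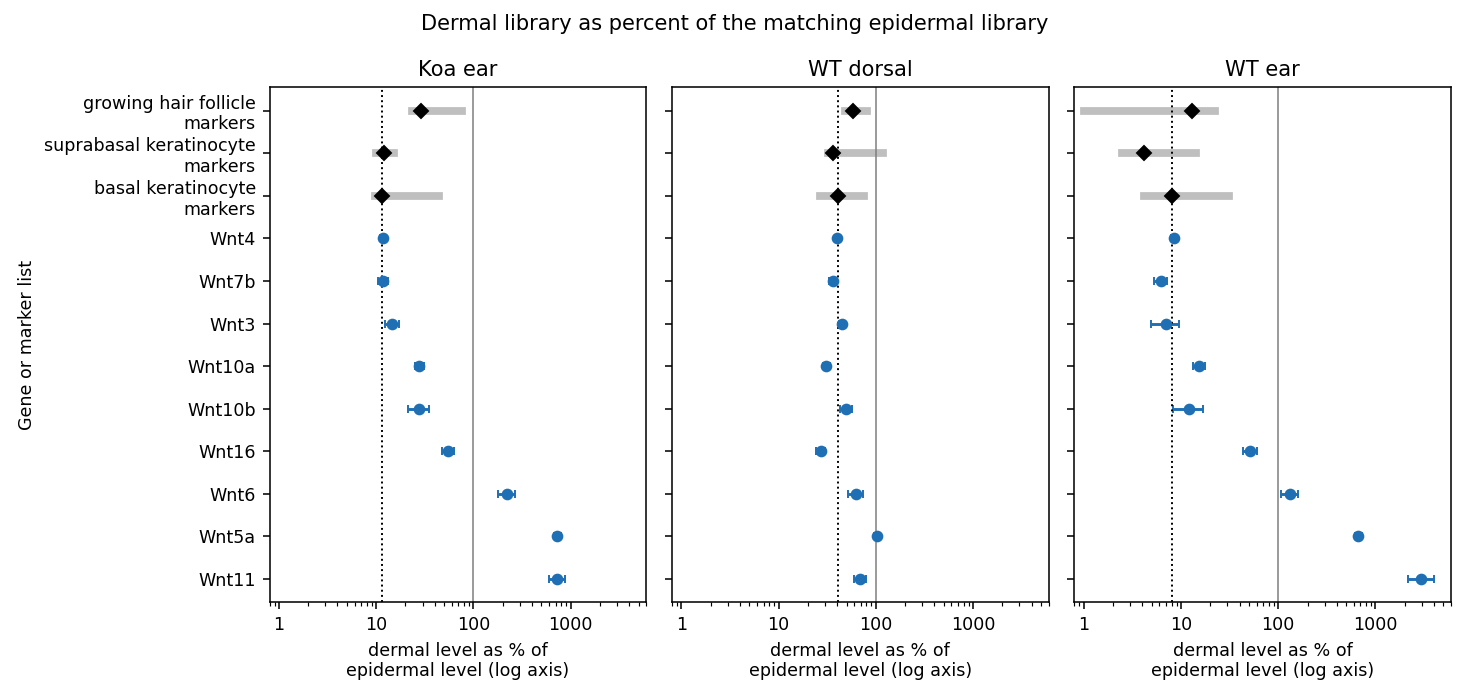
Level in the dermal library as percent of the level in the matching epidermal library (horizontal log axis) in Koa ear, WT dorsal and WT ear skin, 1 library each. Blue points are Wnt ligands with 95% counting intervals, black diamonds and grey bars are the median and range of marker lists, the dotted line is the basal keratinocyte median (11.6%, 40.7% and 7.995%) and the grey line is 100%; Wnt2 is not drawn because it rests on 2 fragments or fewer in epidermis.

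The second comparison asked what the Koa allele changes in the ear. In ear dermis none of the 10 members passed the size rule between Koa and WT, beside 2.78% of 13690 genes (1.71% higher, 1.07% lower). In ear epidermis none of the 9 members at 1 FPKM passed it, beside 3% of 12062 genes (2.15% higher, 0.854% lower). The members' median difference was 0.50 in dermis and 0.20 in epidermis, beside -0.00 and -0.01 over all genes. Both zeros depend on the scale: on the log2(FPKM + 0.1) scale, Wnt3 (1.84), Wnt10b (1.12) and Wnt10a (1.08) were higher in Koa ear dermis, and Wnt11 (1.47) and Wnt3 (1.01) in Koa ear epidermis, where 4.97% of genes passed in dermis and 5.64% in epidermis. Scaled to equal FPKM totals, Wnt3 passed the rule in Koa ear dermis (1.05).

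On the log2(FPKM + 1) scale Wnt3 was the member furthest apart in both layers, just under the size rule. In ear dermis Koa had 1.68 FPKM of it and WT 0.396 FPKM, a difference of 0.94 and a ratio of 4.24 (3.02 to 6.16). In ear epidermis Koa had 11.5 FPKM and WT 5.66 FPKM, a difference of 0.91 and a ratio of 2.03 (1.84 to 2.24). These layers share no library, but the labels do not say whether they share animals. Both dermal libraries also held keratinocyte markers. Growing hair follicle markers were higher in Koa for 8 of 8 in both layers. Their summed levels were 48.2 against 1.94 FPKM in dermis and 160 against 17.4 FPKM in epidermis, Krt31 being at 0 in WT ear dermis. Basal keratinocyte markers were higher in Koa ear dermis for 4 of 8 and suprabasal markers for 4 of 6 at 1 FPKM. In epidermis none of either list was higher. Against WT dorsal epidermis, growing hair follicle markers were higher in Koa ear for 6 of 8, while Wnt3 was lower there. The part of these cells in the level of Wnt3 was not tested.

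The other epidermal members differed less on that scale. Wnt10a reached 5.57 FPKM in Koa against 2.58 FPKM in WT ear dermis (ratio 2.16, 1.83 to 2.56), and 20.1 and 16.9 FPKM in Koa and WT ear epidermis (1.19, 1.11 to 1.28). Wnt4 had ratios of 1.61 (1.45 to 1.77) in dermis and 1.15 (1.12 to 1.19) in epidermis, and Wnt16 of 1.37 (1.14 to 1.64) and 1.29 (1.13 to 1.46). With the keratinocyte share subtracted, the difference in dermis was 0.93 for Wnt10a, 0.43 for Wnt3 and -0.14 for Wnt4. Wnt7b and Wnt10b, the members that lie on chromosome 15 between Trps1 and the Hoxc cluster, differed little in ear epidermis. Wnt7b had 23.3 FPKM in Koa against 24.2 FPKM in WT (ratio 0.962, 0.912 to 1.01), and Wnt10b 3.64 and 3.40 FPKM (1.07, 0.917 to 1.25). In dermis, where they are low, Wnt7b stood at 2.75 and 1.499 FPKM (1.84, 1.52 to 2.23) and Wnt10b at 1.00 and 0.407 FPKM (2.46, 1.66 to 3.72).

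Among the members led by dermis, Wnt5a had 17.9 FPKM in Koa against 15.2 FPKM in WT ear dermis (ratio 1.18, 1.12 to 1.23), Wnt2 had 4.13 and 4.79 FPKM (0.863, 0.738 to 1.01), and Wnt11 had 8.2 and 10.1 FPKM (0.816, 0.748 to 0.889). Wnt6 stood at 5.01 and 3.24 FPKM in Koa and WT ear dermis (1.54, 1.30 to 1.84) and at 2.27 and 2.48 FPKM in Koa and WT ear epidermis (0.915, 0.733 to 1.14). Wnt11 in ear epidermis, at 1.14 FPKM in Koa against 0.345 FPKM in WT, had a ratio of 3.29 (2.33 to 4.73).

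The third comparison set the back against the ear in WT mice. Here 5 members were higher in dorsal than in ear dermis (Wnt3, Wnt4, Wnt7b, Wnt10a, Wnt10b) and Wnt11 was lower, where 11.7% of 14234 genes were higher and 7.05% lower (18.8% in all). In epidermis 4 members were higher on the back (Wnt3, Wnt5a, Wnt11, Wnt16) and none lower, where 11.5% of 12500 genes were higher and 5.47% lower (16.9% in all). The members' median difference was 1.23 in dermis and 0.96 in epidermis, beside -0.05 and -0.02 over all genes.

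On the log2(FPKM + 1) scale Wnt3 had the widest difference in both layers, while by ratio Wnt11 was wider in epidermis. In dermis dorsal skin had 15.4 FPKM and ear skin 0.396 FPKM (difference 3.55, ratio 38.8, 28.7 to 54.8), and in epidermis dorsal skin had 34.2 FPKM and ear skin 5.66 FPKM (difference 2.40, ratio 6.05, 5.56 to 6.59). Wnt16 stood at 14.7 and 3.71 FPKM in dorsal and ear epidermis, a ratio of 3.97 (3.57 to 4.42). Wnt5a stood at 8.84 and 2.30 FPKM there (3.85, 3.51 to 4.21) and Wnt11 at 4.59 and 0.345 FPKM (13.3, 9.84 to 18.6). Wnt10a (33.8 and 16.9 FPKM), Wnt10b (7.12 and 3.40 FPKM) and Wnt6 (5.18 and 2.48 FPKM) had ratios of 2.00 to 2.09 in epidermis and differences of 0.83 to 0.96, just under the size rule. Wnt4 (49.0 and 53.3 FPKM) and Wnt7b (23.6 and 24.2 FPKM) had ratios of 0.920 (0.890 to 0.951) and 0.973 (0.922 to 1.03). On the deposited FPKM the epidermal members thus fell into those near 1 and those at about 2.00 or more. Scaling to equal FPKM totals, which moved the median of all genes to -0.46, lowers all these ratios by the same factor. Growing hair follicle markers were higher in dorsal epidermis for 5 of 8 (summed 51.2 against 17.4 FPKM), fibroblast markers for 3 of 5 at 1 FPKM (101.8 against 56.7 FPKM) and dermal papilla markers for 2 of 4, with 1 lower. Their part in these differences was not tested.

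In dermis the 5 higher members moved with keratinocyte markers, but not with these alone. Of keratinocyte markers 7 of 8 basal and 7 of 7 suprabasal ones were higher in dorsal than in ear dermis. Their sums were 6364 against 780 FPKM and 2540 against 203 FPKM. Also higher were 6 of 7 growing hair follicle markers and 3 of 3 T cell and Langerhans cell markers. Smooth muscle markers were higher for 3 of 4, with 1 lower, and melanocyte markers for 2 of 4. After the subtraction of the keratinocyte share (40.7% and 7.995%), 1 member was still higher in dorsal dermis, Wnt3 (difference 1.29, 1.45 FPKM against 0 FPKM), and 4 were lower. The subtraction shifted genes in general: 40.9% of 13405 genes then passed the size rule, and the median of all genes was -0.78. Wnt4 then had a difference of -0.33 and Wnt10a of -1.16, Wnt7b was at 0 in both, and Wnt10b stood at 0.599 against 0.135 FPKM. Wnt5a (-1.32), Wnt10a, Wnt11 (-2.28) and Wnt16 (-1.39) were lower after it. Before it, Wnt11 had 3.14 FPKM in dorsal against 10.1 FPKM in ear dermis (ratio 0.313, 0.276 to 0.353), and Wnt5a 9.05 and 15.2 FPKM (0.594, 0.562 to 0.627). Wnt2 stood at 5.20 and 4.79 FPKM in dorsal and ear dermis, a ratio of 1.09 (0.934 to 1.26). Cartilage markers moved with Wnt11, lower in dorsal dermis for 3 of 4 (30.5 against 158 FPKM). Dermal papilla markers were mixed, lower for 2 of 8 and higher for 1 (91.3 against 301 FPKM). Wif1 gave 25.6 and 218 FPKM of those sums. Fibroblast markers were mixed too, lower for 2 of 7 and higher for 1 (6177 against 11028 FPKM). Dcn gave 3675 and 7827 FPKM of those sums. The part of these cells was not tested.

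**Figure D4:**
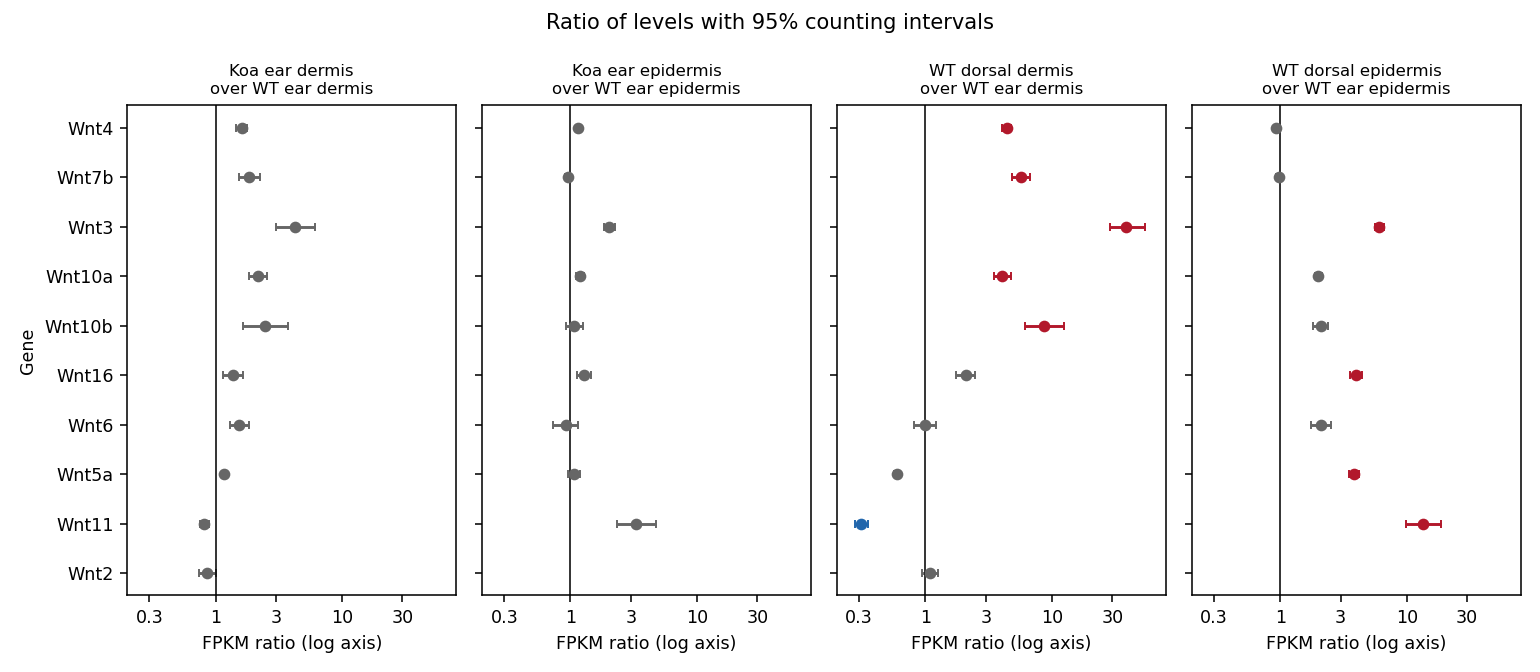
Ratio of FPKM (horizontal log axis) with 95% counting intervals for each Wnt ligand, for Koa over WT in ear dermis and ear epidermis and for WT dorsal over WT ear in dermis and epidermis, 1 library per group. Red and blue points passed the size rule as higher and lower and grey points did not; Wnt11 lies at 0.313 in dorsal over ear dermis and at 13.3 in dorsal over ear epidermis, and Wnt2 is not drawn in epidermis, where it stood under 1 FPKM.

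The Koa ear was also set against WT dorsal skin. In dermis Wnt11 was higher in Koa ear (8.2 FPKM against 3.14 FPKM in dorsal dermis) and Wnt3, Wnt4, Wnt7b and Wnt10b were lower, where 5.94% of 14223 genes were higher and 9.63% lower (15.6% in all). Keratinocyte markers moved with the lower members: 6 of 8 basal and 7 of 7 suprabasal markers were lower in Koa ear dermis. After the subtraction of the keratinocyte share none of the 10 was lower and 5 were higher, Wnt5a (1.53), Wnt6 (1.45), Wnt10a (2.08), Wnt11 (1.996) and Wnt16 (1.62), with Wnt4 at 0.18, Wnt7b at 0.08, Wnt10b at -0.02 and Wnt3 at -0.86. Here too genes shifted in general, with 33.9% of 13391 genes past the rule and a median of all genes of 0.72. In epidermis Wnt3, Wnt5a, Wnt11 and Wnt16 were lower in Koa ear, and none higher, where 3.52% of 12489 genes were higher and 8.75% lower (12.3% in all). Scaled to equal FPKM totals, Wnt5a alone stayed past the rule (-1.01), while the median of all genes moved to 0.52. These comparisons share libraries with those above. In epidermis Wnt3, Wnt10a, Wnt11 and Wnt16 lay in the Koa ear between the WT sites beyond counting error with the longest transcript. Wnt3 had 11.5 FPKM in Koa ear, 34.2 FPKM in WT dorsal and 5.66 FPKM in WT ear epidermis. Wnt4 (61.4, 49.0 and 53.3 FPKM in the same order) was highest in the Koa ear. Growing hair follicle markers did not move with Wnt3 in these comparisons. In epidermis 6 of 8 were higher in Koa ear than in WT dorsal skin (160 against 51.2 FPKM), while Wnt3 was lower. In dermis 1 of 8 was higher and 0 lower in Koa ear (48.2 against 32.2 FPKM), while Wnt3 was lower (1.68 against 15.4 FPKM).

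Tail dermis had little of the epidermal members and the highest Wnt5a. Wnt5a stood at 35.3 FPKM in WT tail dermis, 15.2 FPKM in WT ear dermis and 9.05 FPKM in WT dorsal dermis. By the size rule Wnt5a was higher in tail than in ear dermis and Wnt7b (0.08 FPKM against 1.499), Wnt10a (0.67 against 2.58) and Wnt16 (0.37 against 1.92) were lower, where 6.43% of 13444 genes were higher and 25.8% lower (32.2% in all). With the libraries scaled by median ratio, Wnt5a (1.48) and Wnt7b (-1.18) passed it, and none did on the log2(FPKM + 5) scale. Against dorsal dermis Wnt5a and Wnt11 (7.33 against 3.14 FPKM) were higher in tail and Wnt3, Wnt4, Wnt7b, Wnt10a, Wnt10b and Wnt16 were lower, where 7.17% of 13841 genes were higher and 27.9% lower (35.1% in all). Basal keratinocyte markers moved with the lower members, at a sum of 143 FPKM in tail, 6364 FPKM in WT dorsal and 780 FPKM in WT ear dermis. Melanocyte markers summed to 1740 FPKM in tail, 115 FPKM in ear and 270 FPKM in dorsal dermis. Smooth muscle markers summed to 386, 154 and 263 FPKM in the same order, with 3 of 4 higher in tail than in ear. Both sums were largest in tail, as Wnt5a was, but larger in dorsal than in ear dermis, unlike Wnt5a. Endothelial markers (54.5, 17.6 and 16.0 FPKM, 3 of 4 higher in tail than in ear) had the order of Wnt5a by their sums. None of these 4 passed the size rule between dorsal and ear dermis. Dermal papilla markers had that order too, with sums of 892 FPKM in tail, 301 FPKM in ear and 91.3 FPKM in dorsal dermis. Of these markers 4 of 8 were higher in tail than in ear. Crabp1 alone gave 653, 52.7 and 39.5 FPKM in tail, ear and dorsal dermis, while Wif1 had 155, 218 and 25.6 FPKM. The part of these cells was not tested. Wnt2 stood at 3.18 FPKM in tail and 4.79 FPKM in ear dermis, and Wnt6 at 1.62 and 3.24 FPKM.

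Ordered over the 6 libraries of ear and back, most neighbouring levels of a member differed beyond counting error, with these exceptions. The 3 epidermal levels of Wnt7b (23.3 to 24.2 FPKM) and the levels of Wnt2 within each layer could not be put in order from one neighbour to the next. The same held for Wnt5a between WT dorsal dermis and WT dorsal epidermis and between Koa and WT ear epidermis, and for Wnt10b among Koa ear epidermis, WT dorsal dermis and WT ear epidermis. It also held for Wnt16 between WT dorsal dermis and WT ear epidermis, and for Wnt6 in 3 of its neighbouring pairs. All 5 steps of Wnt3, Wnt4, Wnt10a and Wnt11 exceeded counting error with the longest transcript. With the shortest coding transcript the intervals of Wnt11 include 1 for Koa over WT ear dermis (0.640 to 1.04) and for WT dorsal dermis over epidermis (0.454 to 1.02). For Wnt16 they widen to 0.413 to 4.22 for Koa over WT ear epidermis and 0.332 to 10.98 for Koa over WT ear dermis.

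Across these 6 libraries the members' profiles of log2(FPKM + 1) were closest for Wnt4 and Wnt7b (Pearson r = 0.997), followed by Wnt3 and Wnt10b (0.973), Wnt10a and Wnt10b (0.970) and Wnt5a and Wnt11 (0.967). Wnt2 and Wnt4 were furthest apart (-0.892). The points share the layer contrast and the keratinocyte share of the dermal libraries, so these values are a description. Of 11376 other genes at 5 FPKM or more, the profile most like that of Wnt4 was Nipal2 (0.999), that of Wnt7b was Rab38 (1.000), that of Wnt3 was Pcdh1 (0.998) and that of Wnt2 was Sla (1.000). Those nearest to Wnt5a, Wnt6, Wnt10a, Wnt11 and Wnt16 were Ing3 (0.997), Cd200 (0.988), 8430419L09Rik (0.999), Sfxn3 (0.998) and 2500003M10Rik (0.996).

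Genes that release and receive these ligands were counted by role. Over all genes tested, 20.4% in Koa ear, 21.3% in WT ear and 16.1% in WT dorsal skin were higher in dermis than in epidermis. In the same order 12.7%, 14.4% and 8.27% were lower. Wls, the carrier that takes Wnt proteins to the cell surface, stood at 94.3 FPKM in Koa ear dermis and 133 FPKM in Koa ear epidermis, 73.9 and 117 FPKM in WT dorsal dermis and epidermis, and 100.1 and 108 FPKM in WT ear dermis and epidermis. Porcn, which attaches the lipid, stood between 3.72 and 6.84 FPKM in those 6 libraries, and neither gene passed the size rule between layers. Of 15 receptors and co-receptors, 6 were higher and 3 lower in Koa ear dermis than in Koa ear epidermis. In the WT ear 7 were higher and 2 lower in dermis, and in WT dorsal skin 2 were higher and 2 lower of the 14 at 1 FPKM. Fzd4 (10.2 and 1.09 FPKM in Koa ear dermis and epidermis) went with the dermis, and Fzd6 (7.15 and 37.3 FPKM) with the epidermis. Fzd9, another receptor, stood at 18.9 FPKM in Koa ear dermis and 0.222 FPKM in Koa ear epidermis. Of 8 secreted inhibitors 7 were higher in dermis in both ears, and of 6 in WT dorsal skin 3 were. Ror2, a receptor for Wnt5a, stood at 6.47 FPKM in Koa ear dermis and 0.607 FPKM in Koa ear epidermis, and at 5.64 and 0.210 FPKM in WT ear dermis and epidermis.

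Between Koa and WT ear, none of 15 receptors passed the size rule in dermis, and 1 of 13 did in epidermis, Fzd2 (11.4 against 5.06 FPKM). Over all genes 2.78% passed it in dermis and 3% in epidermis. None of 8 target genes passed it in dermis. In epidermis 1 of 7 did, Lgr5, which also counts as a receptor for R-spondins (13.2 against 5.78 FPKM). Axin2, a general target of beta-catenin, stood at 21.7 FPKM in Koa against 17.1 FPKM in WT ear dermis, and at 24.2 and 19.5 FPKM in Koa and WT ear epidermis. R-spondins and their receptors had 1 of 7 higher in Koa ear dermis and 2 of 4 in Koa ear epidermis, secreted inhibitors 1 of 8 lower in dermis and none of 3 in epidermis, and the turnover genes Rnf43, Znrf3 and Notum none in either layer. Between dorsal and ear dermis 2 of 15 receptors were higher and 3 lower, among them Fzd9 (0.373 against 18.0 FPKM) and Fzd1 (17.7 against 68.4 FPKM). Of 8 targets 3 were higher and 3 lower there, beside 11.7% of all genes higher and 7.05% lower. In dorsal against ear epidermis Fzd2 and Fzd10 (42.8 against 16.0 FPKM) were higher of 13 receptors, and 1 of 7 targets was higher and 1 lower. Over all genes 11.5% were higher and 5.47% lower in that comparison.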

How the data were processed

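The deposited values are FPKM, computed by the authors from 7 RNA-seq libraries. The tools named per the submitters' processing notes are Cufflinks 2.2.1 and TopHat2 2.0.13, and the genome builds named are GRCm38 and mm9. The role of each build and the gene annotation are not given in the sources used here. Titles were used to assign 2 columns whose names hold spelling errors.

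Differences were taken as log2(FPKM + 1) over the whole table, in 11 comparisons, with Python 3.11.15, numpy 2.4.6, pandas 2.3.3 and scipy 1.17.1. Col1a1, Col1a2 and Col3a1, listed at 0 in some dermal libraries, and in tail comparisons the 222 genes listed at 0 in tail alone, were left out. Genes at 1 FPKM or more in 1 of the 2 libraries were kept.

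Depth per sample was recovered from the steps that whole fragments leave in values under 0.15 FPKM. Of 360 to 595 values compared with WT ear dermis per library, 213 to 303 lay at the same step. Genes with 1 annotated transcript gave a length offset of 200 nt. The recovery was tested on data simulated as it assumes, with whole counts and 1 length per gene. That test does not cover how FPKM were estimated for genes with more than 1 transcript. Fragments were computed with the longest GENCODE transcript, and ratio intervals are exact (Clopper-Pearson), for counting error only.

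The keratinocyte share subtracted is the median of 8 basal markers. Named genes are the 10 members, other Wnt ligands at 1 FPKM, pathway genes with wide differences or a stated role, and for likeness the first of the 3 genes with the highest Pearson r, short RNAs under 300 nt being left out. The likeness of Wnt10b is not reported here. Ror2 and Axin2 were named with their values known. Alternatives were pseudocounts of 0.1 and 5, a filter of 5 FPKM or none, equal totals, median ratio scaling and the subtraction. Members and lists were chosen with earlier results of these data known.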

Additional observations from a re-analysis of the deposited data

Results flagged for a closer look

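Wnt11 went opposite ways in the layers. Between WT dorsal and WT ear it differed by -1.42 in dermis (3.14 FPKM against 10.1 FPKM) and by 2.06 in epidermis (4.59 FPKM against 0.345 FPKM) on the log2(FPKM + 1) scale. Between Koa ear and WT dorsal it differed by 1.15 in dermis (8.2 FPKM against 3.14 FPKM) and by -1.39 in epidermis (1.14 FPKM against 4.59 FPKM). Both contrasts share the dorsal libraries, each group has 1 library, and the difference between layers was not tested.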

How the results depend on the processing

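No paired analysis was possible because each group has 1 library. With 11 comparisons and 7 alternatives, the counts of members past the size rule were within 1.5 times the reported ones except as follows. At a pseudocount of 0.1 they were 3 (dermis) and 2 (epidermis) between Koa and WT ear, where none was reported. At a pseudocount of 5 they were 2 between WT dorsal and WT ear epidermis, 2 and 2 between Koa ear and WT dorsal dermis and epidermis, 0 and 5 for WT tail against WT ear and WT dorsal dermis, and 5 between WT ear dermis and epidermis. With equal FPKM totals they were 1 between Koa and WT ear dermis (Wnt3, 1.05), 1 between Koa ear and WT dorsal epidermis, and 3 between WT dorsal dermis and epidermis. Equal totals moved the median of all genes to -0.25 in dorsal against ear dermis and -0.46 in epidermis. For tail against ear dermis the count was 1 with a filter of 5 FPKM and 2 with median ratio scaling. Subtracting the keratinocyte share turned Wnt4 (-0.33) and Wnt10a (-1.16) between WT dorsal and WT ear dermis, and Wnt4 (0.18) and Wnt7b (0.077) between Koa ear and WT dorsal dermis, these at 0 FPKM in dorsal dermis by construction, where values below 0 were set to 0. Members not past the size rule before it also turned: Wnt16 (-1.39) between WT dorsal and WT ear dermis, Wnt10a (2.08) and Wnt16 (1.62) between Koa ear and WT dorsal dermis, Wnt4 (-0.14) between Koa and WT ear dermis, and Wnt5a (-0.61) between WT dorsal dermis and epidermis. Between Koa ear and WT dorsal dermis 5 members were then higher and 0 lower, beside 33.9% of all genes past the rule and a median of 0.72. This subtraction could not be run for the tail, which has no epidermal library. Of 90 ratios of members, 77 had counting intervals that exclude 1, and 69 did with the shortest coding transcript as length. Levels near 1 fragment, such as Wnt2 in epidermis, are limited by depth.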
